A study of Mus musculus with 15 samples.

Results

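Pax6, Isl1, Mafa, Mlxipl, Glis3, Hhex and Irx2 are 7 transcription factor genes that act in islet cells, mostly after the endocrine progenitor stage. They were taken by name, as 7 of the 19938 mouse genes that a probe set of the array names alone, and each was read by 1 probe set. All 7 were among the 16883 genes kept for testing, which had an intensity above 97.8, the 30th percentile of the table, in at least 3 of 15 arrays. The arrays held 5 groups of 3: the Sox9-GFP+ sorts of e10.5, of e15.5 and of p23, an Ngn3-GFP+ sort of e15.5, and a GFP- sort of p23. All came from pancreas of mice on a CD1 background. Embryos were offspring of Sox9-EGFP or Ngn3-EGFP males and CD1 females, the p23 groups were Sox9-EGFP pups, and the labels list no treatment or deletion for any group. Sox9 marks the multipotent and later the duct-like progenitors, and Ngn3 (Neurog3) marks cells entering the endocrine lineage. Only cells with strong GFP signal were sorted as GFP+, and each sort pooled several animals. A GFP+ cell is thus defined by a reporter and not by the protein itself, and the Ngn3-GFP+ and Sox9-GFP+ sorts came from different reporter lines. The GFP- sort holds every cell type that lacked GFP, and no further marker was used to divide it. Nothing says that the pools of a group came from separate litters, so the spread between arrays may be partly technical.

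Endocrine cells of the pancreas leave a Sox9-expressing epithelium when they switch on Neurog3, and then acquire the factors that fix hormone identity. Pax6, a paired-box homeodomain protein, and Isl1, a LIM-homeodomain protein, are needed for islet cell formation and for hormone gene expression. Mafa, a basic leucine zipper protein, drives insulin transcription and comes on late in beta cells. Mlxipl encodes ChREBP, a factor that responds to glucose metabolites in beta cells and liver. Glis3, a zinc finger protein, acts on the insulin gene and in duct and cilium development. Hhex is a homeodomain repressor needed for early pancreas, liver and duct formation and, later, for delta cells. Irx2 is an Iroquois homeodomain gene associated with alpha cells.

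The sorts were checked against their own genes on the scale used throughout, log2(intensity + 16). Sox9 lay between 11.62 and 12.14 in the 9 Sox9-GFP+ arrays, between 10.13 and 11.21 in the Ngn3-GFP+ arrays, and between 8.68 and 10.08 in the GFP- arrays. Neurog3 did not separate the e15.5 sorts, at 11.66 to 12.12 in Sox9-GFP+ and 11.53 to 12.21 in Ngn3-GFP+ cells, and it lay between 5.05 and 5.31 in all 6 arrays from p23. The GFP- arrays carried strong leukocyte signal: the summed intensity of 15 leukocyte markers was 65846 to 96742 there, against 2750 to 5680 in Sox9-GFP+ cells at p23 and 1380 to 2315 in the embryonic sorts. Ptprc, the common leukocyte antigen, measured 8.12, 10.64 and 10.09 in Sox9-GFP+ arrays from p23, so leukocyte signal was unequal among these 3. Embryonic globin signal (Hbb-y above 9) was present in replicates 1 and 2 of the e10.5 sort and in replicate 1 of the Sox9-GFP+ sort of e15.5. In these bulk sorts, fewer cells of a type and less RNA per cell cannot be told apart.

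Pax6 was high in every embryonic sort and low at p23. In the Sox9-GFP+ sorts its level was 11.28, 11.20 and 11.62 at e10.5 and 11.29, 11.64 and 11.30 at e15.5. It was 12.07, 12.61 and 12.16 in Ngn3-GFP+ cells, above every Sox9-GFP+ array. At p23 it was 6.78, 6.66 and 5.89 with GFP (Sox9-GFP+) and, without GFP, 5.47, 5.54 and 5.35, all under the 30th percentile of the table (6.83). Of the 5 groups ordered by level, only the neighbours Sox9-GFP+ at e15.5 and e10.5 did not differ beyond their spread, with a difference of 0.04 ± 0.21 (standard error, limma, adjusted p = 0.89).

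Isl1 had nearly the same shape. Its level was 11.69, 11.69 and 11.91 in the Sox9-GFP+ sort of e10.5, 10.77, 11.37 and 10.93 in that of e15.5, and 11.72, 12.09 and 11.63 in Ngn3-GFP+ cells. The e15.5 Sox9-GFP+ arrays lay under all others of the embryo. At p23 Isl1 was 5.09, 6.40 and 5.49 in the Sox9-GFP+ sort against 5.92, 5.34 and 5.52 in the GFP- sort, and these groups overlapped. Some neighbours in the order of levels did not pass the test. Ngn3-GFP+ cells were 0.05 ± 0.27 above the Sox9-GFP+ sort of e10.5 (adjusted p = 0.925, in a comparison that called 22% of all genes). The Sox9-GFP+ difference from e10.5 to e15.5 had an adjusted p of 0.0545, and that between the p23 sorts one of 0.89.

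Mlxipl separated all 5 groups. Its level was 11.06, 12.08 and 11.51 in Ngn3-GFP+ cells and 10.11, 10.35 and 9.98 in their Sox9-GFP+ counterparts of e15.5. At e10.5 it was 9.29, 9.22 and 9.38. It fell to 8.23, 8.08 and 7.98 in Sox9-GFP+ cells at p23 and was lowest in GFP- cells, at 6.86, 6.09 and 6.37. Every neighbouring pair in this order passed the test and none overlapped. In these comparisons 47.3% to 57.3% of all genes did not overlap.

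Mafa, the marker of mature beta cells among the 7, was dim and flat. Its level was 6.99, 7.15 and 6.85 at e10.5, 6.94, 6.84 and 6.70 at e15.5 and 7.06, 7.09 and 6.99 at p23 in Sox9-GFP+ cells. It was 7.13, 6.99 and 7.03 in Ngn3-GFP+ cells and 7.12, 7.18 and 7.19 in GFP- cells. On the linear scale these are intensities of 88.2 to 130, and its range of 0.49 over 15 arrays was smaller than that of nearly all kept genes, whose median range was 1.15. The files hold no detection calls, so whether the probe set read any Mafa transcript was not tested. None of the neighbours in its order passed the test. The ends of the order, the GFP- sort and the Sox9-GFP+ sort of e15.5, differed by 0.34 ± 0.10 (adjusted p = 0.0133, in a comparison that called 59.8% of all genes). This call was kept in 15 of 19 alternative fits. It was lost after quantile normalization, and with 1 array left out its adjusted p reached 0.0694.

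Glis3 and Hhex were highest in Sox9-GFP+ cells at p23, where Pax6 and Isl1 were under the 30th percentile of the table. Glis3 was 7.88, 7.82 and 8.05 at e10.5, 9.28, 9.56 and 9.45 at e15.5 and 10.45, 10.40 and 10.35 at p23 in Sox9-GFP+ cells, a step up at each age with no overlap. It was 9.96, 9.27 and 9.61 in Ngn3-GFP+ cells and 7.58, 7.67 and 7.57 in GFP- cells. The p23 Sox9-GFP+ cells were 0.79 ± 0.15 above Ngn3-GFP+ cells (adjusted p = 0.000771, in a comparison that called 34.1% of all genes). The Ngn3-GFP+ and Sox9-GFP+ sorts of e15.5 did not differ beyond their spread, nor did the bottom pair, e10.5 and GFP- cells (0.31 ± 0.15, adjusted p = 0.097, in a comparison that called 49% of all genes).

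Hhex was 10.02, 10.05 and 9.85 at e10.5, 10.89, 11.10 and 10.81 at e15.5 and 12.01, 11.91 and 12.07 at p23 in Sox9-GFP+ cells. It was 10.10, 10.36 and 10.48 in GFP- cells. The Ngn3-GFP+ arrays spread widely, at 11.43, 11.01 and 10.16, and overlapped both the Sox9-GFP+ sort of e15.5 and the GFP- sort. Only the top group stood apart from its neighbour: Ngn3-GFP+ cells were 0.55 ± 0.23 above GFP- cells (adjusted p = 0.0664, in a comparison that called 44.6% of all genes), and GFP- cells 0.34 ± 0.23 above e10.5 (adjusted p = 0.247). Without Ngn3-GFP+ replicate 3 the Ngn3-GFP+ cells passed that test, 0.90 above GFP- cells (adjusted p = 0.000324).

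Irx2 moved least among the 6 genes other than Mafa, over a range of 1.19. Its level was 8.79, 9.02 and 9.25 at e10.5, 8.21, 8.32 and 8.13 at e15.5 and 8.36, 8.22 and 8.14 at p23 in Sox9-GFP+ cells. It was 8.97, 8.68 and 8.77 in Ngn3-GFP+ cells and 8.34, 8.23 and 8.06 in GFP- cells. The e10.5 and Ngn3-GFP+ groups lay above the other 3, which overlapped each other. The upper pair differed by 0.21 ± 0.13 (adjusted p = 0.296), and Ngn3-GFP+ cells were 0.57 ± 0.13 above Sox9-GFP+ cells at p23 (adjusted p = 0.00391).

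**Figure D1:**
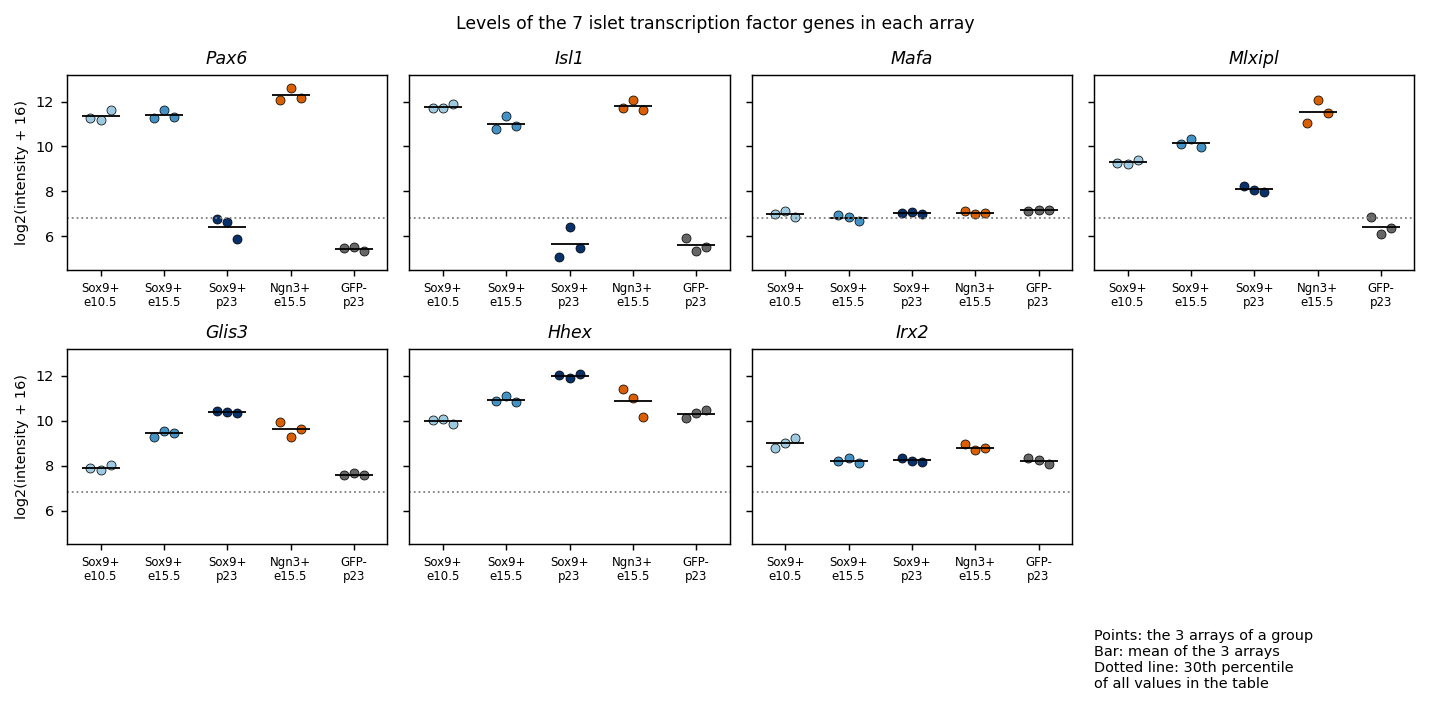
Levels of the 7 genes, as log2(intensity + 16) on the vertical axis, in each of the 5 groups. Points are the 3 arrays of a group, bars their mean, and the dotted line is the 30th percentile of the table (6.83). Pax6 and Isl1 fall under the line at p23 in both sorts, Glis3 and Hhex rise with age in Sox9-GFP+ cells, and Mafa stays close to the line in all 15 arrays.

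The promoters of Pax6, Isl1, Mlxipl and Hhex are shown because these genes stand for the contrasting patterns, the first 3 lowest at p23 and Hhex highest in Sox9-GFP+ cells at p23. Each is the 250 bases upstream of the gene's outermost RefSeq start on GRCm38.p6, 5′ to 3′ on the strand of the gene. Capitals mark matches, on either strand, to the 5 motifs searched: TAATTA (homeodomain core), GTTAAT (part of an Hnf1 site), TGCTGA (part of a Maf site), CACGTG (E-box core, part of the ChREBP element) and GTTGCC (part of an Rfx site). The windows are chr2:105668646-105668895, plus strand, for Pax6, and chr13:116309689-116309938, minus strand, for Isl1. They are chr5:135089640-135089889, plus strand, for Mlxipl, and chr19:37434591-37434840, plus strand, for Hhex.
Pax6: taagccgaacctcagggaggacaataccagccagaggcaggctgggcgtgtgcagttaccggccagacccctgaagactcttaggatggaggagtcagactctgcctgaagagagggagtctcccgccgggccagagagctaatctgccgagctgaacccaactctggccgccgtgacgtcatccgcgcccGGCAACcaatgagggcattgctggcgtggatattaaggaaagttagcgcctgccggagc
Isl1: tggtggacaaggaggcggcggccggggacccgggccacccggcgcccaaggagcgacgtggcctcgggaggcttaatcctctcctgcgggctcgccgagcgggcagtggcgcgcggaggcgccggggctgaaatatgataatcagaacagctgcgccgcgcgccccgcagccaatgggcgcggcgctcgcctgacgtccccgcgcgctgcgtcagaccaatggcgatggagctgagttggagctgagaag
Mlxipl: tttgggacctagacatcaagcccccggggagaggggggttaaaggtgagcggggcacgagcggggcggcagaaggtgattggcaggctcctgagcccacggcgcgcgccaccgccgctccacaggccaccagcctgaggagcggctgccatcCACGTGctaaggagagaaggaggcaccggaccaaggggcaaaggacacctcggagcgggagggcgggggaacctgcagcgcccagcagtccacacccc
Hhex: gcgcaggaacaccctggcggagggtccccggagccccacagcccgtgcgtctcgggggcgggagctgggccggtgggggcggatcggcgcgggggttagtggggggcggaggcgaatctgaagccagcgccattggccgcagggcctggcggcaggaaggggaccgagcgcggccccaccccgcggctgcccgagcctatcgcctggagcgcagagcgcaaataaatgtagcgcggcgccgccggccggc
The Pax6 window held 1 GTTGCC on the minus strand, whose first base lies at -59 from the start, and the Mlxipl window held 1 CACGTG at -98. The windows of Isl1 and Hhex held none of the 5 motifs. In all 32851 mouse promoters of that length, 10.4% held GTTGCC, 6.02% CACGTG, 4.84% TAATTA, 6.43% GTTAAT and 16.1% TGCTGA. All 4 windows were richer in G and C than the median promoter (52.4%), at 60.8% for Pax6, 71.2% for Isl1, 69.2% for Mlxipl and 76% for Hhex. Pax6 and Mlxipl each had another start, whose window is not shown and differed. That of Pax6 (start at 105682463) held none of the 5 motifs and was 47.6% G and C. That of Mlxipl (start at 135106891) held TAATTA at -35 but no CACGTG, and was 53.2% G and C. Isl1 with 33 CG pairs and Hhex with 32 had opposite levels at p23, and a relation between base composition and level was not tested. Of the 7 genes, 6 were in the promoter table.

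The first comparison asks how the Sox9-GFP+ sort of e10.5, when Sox9 marks multipotent progenitors, differs from that of e15.5. The e10.5 sort also carried hormone RNA. Its mean level was 13.32 for Gcg and 13.19 for Pyy, against 13.42 and 13.24 in Ngn3-GFP+ cells. Ins2 (8.72) and Sst (8.82) were far below their Ngn3-GFP+ means of 13.07 and 12.75. What share of the e10.5 values of Pax6 and Isl1 came from endocrine cells was not tested. Glis3, Hhex and Mlxipl rose and Irx2 fell, while Pax6 gave a difference near 0. Glis3 rose by 1.51 ± 0.15 (adjusted p = 9.52e-06), Hhex by 0.96 ± 0.23 (adjusted p = 0.00977) and Mlxipl by 0.85 ± 0.23 (adjusted p = 0.016). Irx2 fell by 0.80 ± 0.13 (adjusted p = 0.000913). These were 3 of 7 members higher and 1 lower, where 12.2% of all genes were called higher and 16% lower. Isl1 was 0.74 ± 0.27 lower with no overlap, but its adjusted p was 0.0545 and its 95% interval ran from -1.32 to -0.16. Over all genes, 57.3% did not overlap in this comparison. Pax6 (0.04 ± 0.21) and Mafa (-0.17 ± 0.10) were not called. Mlxipl lost its call without e10.5 replicate 2 (adjusted p = 0.0573) or e15.5 replicate 2 (adjusted p = 0.0679), and both Mlxipl (0.78, adjusted p = 0.163) and Hhex (1.11, adjusted p = 0.071) lost it without the 3 arrays with embryonic globin, which left 1 array at e10.5.

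Other islet transcription factors split at the same step, with 9 of 25 higher and 3 lower and a median of 0.09, against -0.05 over all genes. Neurog3 rose by 2.04 ± 0.23 and Pax4, a repressor that favours beta cells, by 1.43 ± 0.23. Mnx1, which has roles early in the pancreas bud and later in beta cells, fell by 1.16 ± 0.22. Nr4a1, a nuclear receptor that is also an immediate early gene, rose by 2.90 ± 0.23, and all 10 immediate early genes listed rose as well, with a mean level of 7.73 to 7.94 in the e10.5 arrays and of 9.92 to 10.91 in the e15.5 arrays. Of 7 hormone genes 4 rose, Ins2 by 3.39 ± 0.24 and Sst by 2.53 ± 0.46. Liver genes fell in 5 of 8, with a mean level of 9.90 to 10.23 in the e10.5 arrays and of 8.15 to 8.74 in the e15.5 arrays, and the part of this in the values of Hhex and Mlxipl, genes that liver expresses too, was not tested. Of 12 neuron and Schwann cell genes 5 fell and 1 rose. Their part in the values of Isl1, a gene of many neurons, was not tested either.

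The second comparison asks what differs between the Sox9-GFP+ sort of e15.5 and that of p23, when Sox9 marks ducts. Pax6, Isl1 and Mlxipl fell and Glis3 and Hhex rose. Pax6 fell by 4.97 ± 0.21 (adjusted p = 8.7e-10), Isl1 by 5.36 ± 0.27 (adjusted p = 3.52e-09) and Mlxipl by 2.05 ± 0.23 (adjusted p = 7.88e-06). Glis3 rose by 0.97 ± 0.15 (adjusted p = 0.000137) and Hhex by 1.06 ± 0.23 (adjusted p = 0.00183). Irx2 gave 0.02 ± 0.13 and Mafa 0.22 ± 0.10, neither called. The 2 members called higher and 3 called lower stand beside 30.7% and 26.8% of all genes. Since Pax6 and Isl1 end below the 30th percentile, where the offset of 16 compresses values, this scale understates their falls.

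The fall of Pax6 and Isl1 was shared by most islet genes on the list. Of 25 islet transcription factors 19 fell and 4 rose, with a median of -1.54 against 0.05 over all genes. Neurog3 fell by 6.72 ± 0.23, and Insm1, a zinc finger factor of endocrine progenitors, gave -5.08 ± 0.23. Neurod1 fell by 4.81 ± 0.29 and Rfx6 by 4.77 ± 0.23. Of 15 genes known as targets of Pax6, Isl1 or Mafa, 10 fell and 1 rose (median -2.34). Abcc8, the sulfonylurea receptor subunit of the beta cell potassium channel, fell by 4.28 ± 0.20, and Pcsk1, a prohormone convertase, gave -4.18 ± 0.29. Hormone genes fell in 6 of 7. Delta cell genes fell in 6 of 7, Sst by 2.68 ± 0.46, and alpha cell genes in 6 of 8, with Gcg at -3.89 ± 0.32, while Irx2 was not called.

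Duct genes went the way of Glis3 and Hhex, with 9 of 15 higher and 2 lower (median 1.46). Cftr, the chloride channel of duct cells, rose by 3.69 ± 0.40 and Pkhd1, the fibrocystin gene of the primary cilium, by 2.67 ± 0.31. Leukocyte genes rose in 12 of 15 and immediate early genes in 10 of 10 in the same comparison. Endothelial genes rose in 14 of 15 and 1 fell, with a median of 0.51. Of 12 acinar genes 6 rose and 3 fell. The digestive enzyme genes Cela2a (4.36) and Cel (3.01) and the zymogen granule gene Gp2 (7.10) rose, and the summed acinar intensity was 22238 to 32515 at e15.5 and 82480 to 94615 at p23. The part of these cell types in the members' changes was not tested. Without the 2 p23 arrays with Ptprc above 9, which left 1 p23 array whose spread was assumed to be that of the other groups, Glis3 gave 1.02 (adjusted p = 0.00414) and Hhex 1.08 (adjusted p = 0.0266). Mlxipl fell, but its listed targets did not move one way: 6 of 18 rose and 8 fell (median -0.26), with Scd1, a fatty acid desaturase, up by 3.27 ± 0.23 and Acly, ATP citrate lyase, down by 2.00 ± 0.13. Txnip, a gene that ChREBP induces in response to glucose, rose by 0.51 ± 0.19.

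Between e10.5 and p23, the widest age gap, 2 members were called higher and 4 lower, beside 17.7% and 23.3% of all genes. Glis3 rose by 2.48 ± 0.15 (adjusted p = 1.03e-08) and Hhex by 2.02 ± 0.23 (adjusted p = 6.83e-06). Isl1 fell by 6.10 ± 0.27 (adjusted p = 7.8e-10), Pax6 by 4.93 ± 0.21 (adjusted p = 6.57e-10), Mlxipl by 1.20 ± 0.23 (adjusted p = 0.00065) and Irx2 by 0.78 ± 0.13 (adjusted p = 0.000258). Mafa gave 0.05 ± 0.10 (adjusted p = 0.754). The path differed between genes: Mlxipl rose to e15.5 before it fell, Irx2 had fallen by e15.5, and Glis3 and Hhex rose at both steps. The 3 age comparisons share arrays, so they are not separate evidence.

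**Figure D2:**
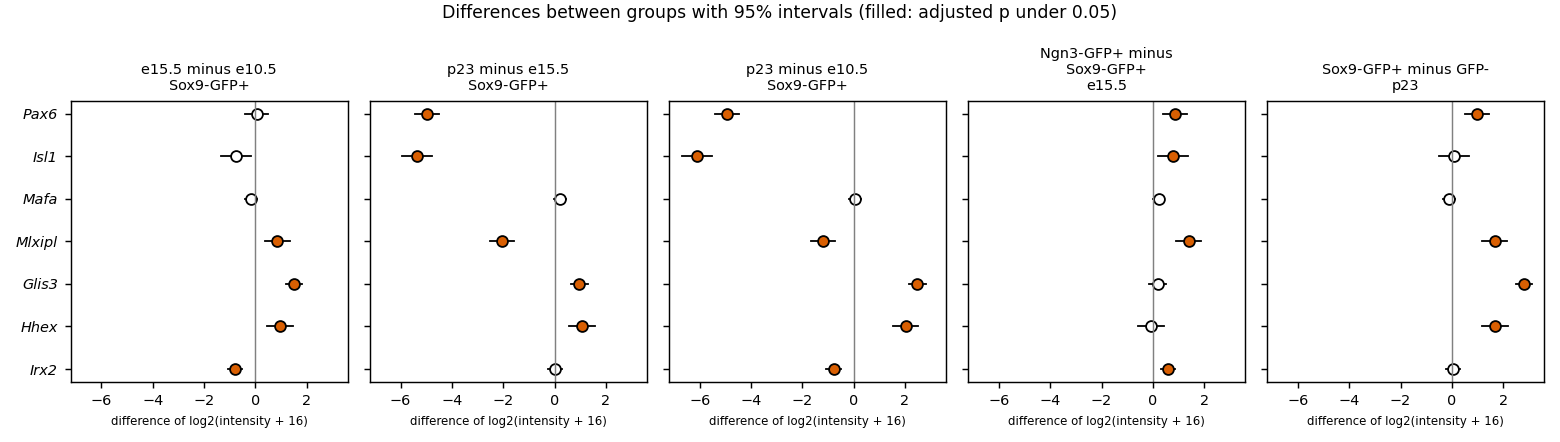
Differences of log2(intensity + 16) between groups for the 7 genes, with 95% intervals from the limma fit, in the 5 comparisons. Filled points have an adjusted p under 0.05. The p23 minus e15.5 differences of Pax6 (-4.97) and Isl1 (-5.36) exceed in size every other difference of that step, and no Mafa point is filled.

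The e15.5 comparison of Ngn3-GFP+ with Sox9-GFP+ cells asks which genes go with entry into the endocrine lineage. Mlxipl, Pax6, Irx2 and Isl1 were higher in Ngn3-GFP+ cells, 4 of 7 members, and none was lower, where 23.3% of all genes were called higher and 18.4% lower. Mlxipl differed by 1.40 ± 0.23 (adjusted p = 0.000945), Pax6 by 0.87 ± 0.21 (adjusted p = 0.00817) and Irx2 by 0.59 ± 0.13 (adjusted p = 0.00565). The sorts did not overlap for 5 of 7 members, these genes, Isl1 and Mafa, and for 56.2% of all genes. Isl1 differed by 0.79 ± 0.27 (adjusted p = 0.032). That call was lost in 4 of the 6 fits that left out 1 of these arrays: adjusted p = 0.105 without Sox9-GFP+ replicate 1, 0.0937 without its replicate 3, 0.0506 without Ngn3-GFP+ replicate 1 and 0.0989 without its replicate 2. It was also lost after median centring (0.61, adjusted p = 0.0956), with an offset of 1, with array weights and without the arrays with embryonic globin. Glis3 and Hhex were not called, at 0.18 with an interval of -0.13 to 0.50 and at -0.07 with an interval of -0.56 to 0.43. Mafa gave 0.22 ± 0.10 (adjusted p = 0.102).

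Targets of Pax6, Isl1 and Mafa were higher in Ngn3-GFP+ cells in 13 of 15, with a median of 1.01 against 0.04 over all genes. Glp1r, the receptor for the incretin GLP-1, differed by 2.90 ± 0.23, Slc30a8, the zinc transporter of insulin granules, by 2.84 ± 0.48 and G6pc2, an islet glucose-6-phosphatase, by 2.65 ± 0.41. Of the other islet transcription factors 9 of 25 were higher, among them Mnx1 by 1.02 ± 0.22, Myt1 by 0.83 ± 0.21 and Rfx6 by 0.75 ± 0.23, and Nr4a1 was lower by 3.08 ± 0.23, with 6 of 10 immediate early genes lower too. Hormone genes were higher in 3 of 7, with Sst higher by 1.40 ± 0.46, and delta cell genes in 3 of 7. Duct genes were lower in 5 of 15, with Sox9 at -1.29 ± 0.32, and 1 was higher, Onecut2 at 0.56 ± 0.18. Mlxipl had its highest level here, yet only 1 of 18 listed targets was higher and 3 were lower. The highest Mlxipl value, 12.08 in Ngn3-GFP+ replicate 2, came with the highest liver gene mean of that sort, 9.77 against 8.68 and 7.94. The same array held the highest Pax6 (12.61) and Isl1 (12.09) and the lowest Sox9 (10.13) of the sort. At e10.5 the liver gene mean was 9.90 to 10.23, with Mlxipl at 9.22 to 9.38. The part of liver cells in the Mlxipl values was not tested. Leaving out 1 array at a time, the Mlxipl difference ran from 1.14 to 1.65 and kept its call. Endothelial genes were higher in 7 of 15, leukocyte genes in 4 of 15, and acinar genes were lower in 7 of 12. The part of these cell types in the members' differences was not tested.

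At p23, Sox9-GFP+ cells were compared with the GFP- cells of Sox9-EGFP pups. Glis3, Hhex, Mlxipl and Pax6 were higher in the Sox9-GFP+ cells, 4 of 7 members with none lower, where 21.5% of all genes were called higher and 14.5% lower. Glis3 differed by 2.79 ± 0.15 (adjusted p = 2.45e-09), Hhex by 1.68 ± 0.23 (adjusted p = 4.21e-05), Mlxipl by 1.66 ± 0.23 (adjusted p = 4.02e-05) and Pax6 by 0.99 ± 0.21 (adjusted p = 0.00215). All 6 Pax6 values lay under the 30th percentile, so this difference is between dim values. Isl1 (0.06 ± 0.27), Irx2 (0.03 ± 0.13) and Mafa (-0.12 ± 0.10) were not called. Duct genes were higher in 13 of 15 and lower in none, with Cftr at 4.23 ± 0.40 and Pkhd1 at 4.09 ± 0.31. Leukocyte genes were lower in 14 of 15 and endothelial genes in 8 of 15. Their part in the differences of the members was not tested.

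GFP- cells are the sort in which adult islet cells should be found, and 3 of 7 hormone genes (Ins2, Gcg and Iapp) were lower in Sox9-GFP+ cells and none was called higher, where 14.5% of all genes were called lower. The other 4 were not called, with Ghrl at 1.01 (adjusted p = 0.0548), Ppy at 0.71, Pyy at 0.03 and Sst at -0.34. The mean level of the 7 overlapped between the sorts, at 8.55 to 9.83 in Sox9-GFP+ and 9.02 to 9.69 in GFP- arrays. Ins2 was 11.97, 11.61 and 11.11 in GFP- cells and 10.65, 10.70 and 10.39 in the Sox9-GFP+ sort, a difference of -0.98 ± 0.24 (adjusted p = 0.00495). Gcg was 10.44, 10.19 and 9.33 against 7.80, 9.23 and 9.12 (-1.27 ± 0.32, adjusted p = 0.00613). Pax6 and Isl1 were at 5.34 to 5.92 in all GFP- arrays. Neurod1, another factor of mature islet cells, was as low, at 4.78, 4.35 and 4.78, and Rfx6 was at 5.11, 4.87 and 5.58. In the same arrays Ptprc stood at 14.28, 14.41 and 14.64 and 12 acinar genes summed to an intensity of 104788 to 111481, against 82480 to 94615 in the Sox9-GFP+ arrays of that age. What share of the GFP- RNA came from islet cells was not tested.

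**Figure D3:**
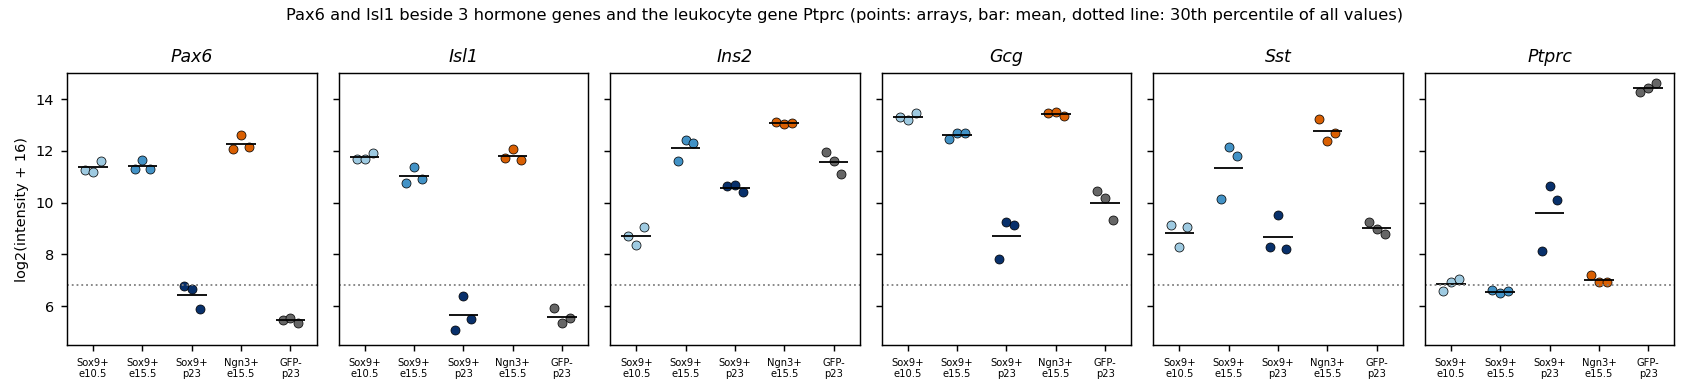
Pax6 and Isl1 beside the hormone genes Ins2, Gcg and Sst and the leukocyte gene Ptprc, as log2(intensity + 16) per array. Points are arrays, bars are means of 3, and the dotted line is the 30th percentile of the table. In GFP- cells Ins2 stays at 11.11 to 11.97 and Ptprc reaches 14.28 to 14.64, while Pax6 and Isl1 lie under the line.

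Whether the difference from Sox9-GFP+ cells was the same at both ages was tested as an interaction, Ngn3-GFP+ minus Sox9-GFP+ cells at e15.5 against GFP- minus Sox9-GFP+ cells at p23. It was positive and called for 5 of 7 members, where 27.1% of all genes were called positive. Mlxipl gave 3.06 ± 0.32 (adjusted p = 6.47e-06), Glis3 2.97 ± 0.21 (adjusted p = 1.62e-07), Pax6 1.86 ± 0.30 (adjusted p = 0.000335), Hhex 1.61 ± 0.33 (adjusted p = 0.00162) and Irx2 0.62 ± 0.19 (adjusted p = 0.0166). Mlxipl and Pax6 changed sides, higher than in Sox9-GFP+ cells in the Ngn3-GFP+ sort and lower in the GFP- sort. For Glis3 and Hhex the e15.5 differences were 0.18 and -0.07, and those of p23, as GFP- minus Sox9-GFP+, -2.79 and -1.68. Isl1 (0.86 ± 0.38, adjusted p = 0.081) and Mafa (0.10 ± 0.15) were not called, and Irx2 lost its call after median centring (0.34, adjusted p = 0.08). The sorts set against Sox9-GFP+ cells differ in kind as well as in age, so age and kind of sort cannot be told apart.

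**Figure D4:**
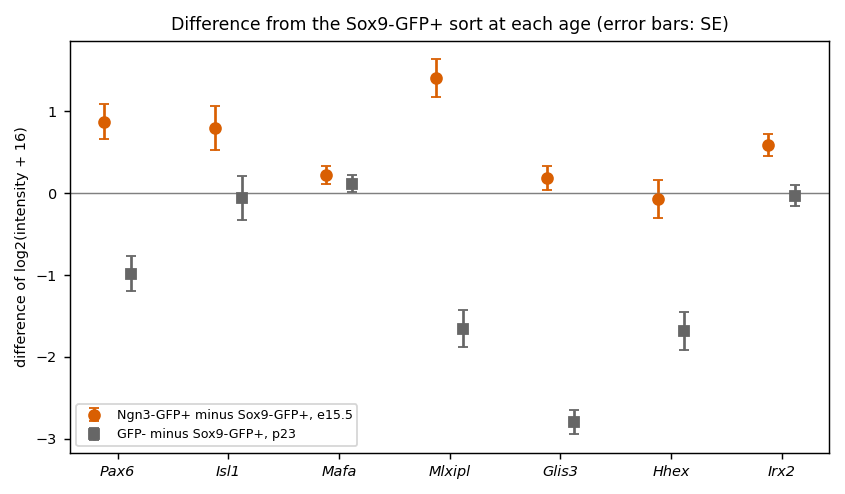
Difference from the Sox9-GFP+ sort of the same age, in log2(intensity + 16), for the Ngn3-GFP+ sort of e15.5 (circles) and the GFP- sort of p23 (squares), with standard errors. Mlxipl and Pax6 lie above 0 at e15.5 and below 0 at p23. Glis3 and Hhex are near 0 at e15.5 and below 0 at p23 (-2.79 and -1.68 as GFP- minus Sox9-GFP+). At p23 Hhex and Mlxipl lie close together.

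Across the 15 arrays the members formed 2 patterns, described here by Pearson correlation without a test, since the arrays fall into 5 groups and share amplification and processing. Pax6 went with Isl1 (r = 0.983) and Mlxipl (r = 0.920), and Isl1 with Mlxipl at r = 0.858. Glis3 went with Hhex (r = 0.862), while Isl1 and Hhex ran apart (r = -0.390). Irx2 went with Pax6 only loosely (r = 0.633).

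The genes most like each member were picked by this correlation over the same arrays, so they share its pattern by choice. Closest to Pax6 were Slc29a4, a monoamine transporter (r = 0.995), Rfx6 (0.995), Neurod1 (0.994), Celf3, an RNA-binding protein of neurons (0.993), and Disp2 (0.993). Closest to Isl1 were Zdbf2, an imprinted gene (0.994), Rbp4, the retinol carrier (0.992), Cltrn, the collectrin gene of beta cells (0.992), Map1b, a microtubule protein (0.990), and Rfx6 (0.989). Mlxipl was closest to Camk2b, a calcium/calmodulin kinase subunit (0.979), Inha, the inhibin alpha subunit (0.978), Tnrc18 (0.977), Pclo, a protein of secretory active zones (0.977), and Ocrl (0.977).

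Glis3 was closest to Car8 (0.988), the nucleoside transporter gene Slc28a3 (0.982), Cys1, the cystin gene of the primary cilium (0.979), Anxa4 (0.972) and Shank2 (0.971). Hhex was closest to Erbb4, a neuregulin receptor (0.965), Vtcn1 (0.958), Vwa5a (0.957), Pkhd1 (0.948) and Tnfrsf19 (0.946). Pkhd1 was also on the duct list, with 11.79, 11.57 and 11.18 in Sox9-GFP+ cells at p23 and no other array above 9.73. Irx2 was closest to Th, tyrosine hydroxylase (0.961), Mboat4, the enzyme that acylates ghrelin (0.946), Xkr6 (0.926), St6gal2 (0.908) and Meox1 (0.904). Th was 8.16, 7.97 and 8.71 at e10.5 and 7.89, 7.80 and 7.74 in Ngn3-GFP+ cells, above all other arrays, like Irx2. Mafa varied too little for likeness to be read. Its closest genes were Tcstv3 (0.913), Oas1a (0.909), Ccdc121 (0.892), Clrn2 (0.877) and Rnase12 (0.875). The highest of these values was below the highest of every other member.

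**Figure D5:**
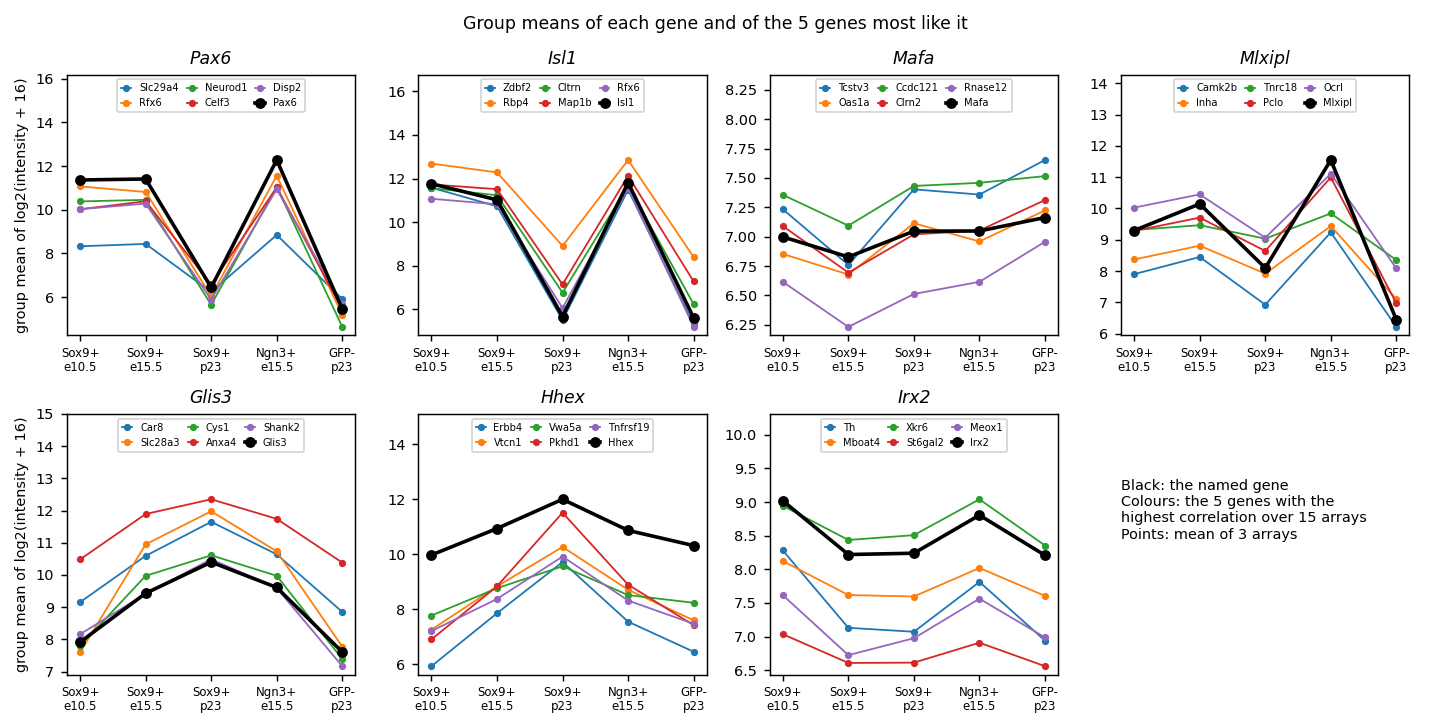
Group means of log2(intensity + 16) of each of the 7 genes (black) and of the 5 genes with the highest Pearson correlation with it over 15 arrays (colours). Each point is the mean of 3 arrays, lines only join the points of a gene, and the axis differs between panels. By this choice, the genes like Pax6 and Isl1 share their low p23 levels, and those like Glis3 and Hhex peak in Sox9-GFP+ cells at p23.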

How the data were processed

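Expression was measured in sorted mouse pancreas cells on 15 Affymetrix arrays, 3 for each of 5 groups. The authors deposited linear intensity values per probe set, which the submitters' processing notes credit to the PLIER method of Affymetrix Expression Console 1.1. The sources used here do not give any normalization between arrays. Array medians were 165.5 to 211.7, and no 2 arrays were identical. Per the labels' protocols, 20 ng of RNA was amplified with the NuGEN Ovation kit before labelling.

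Of 35557 probe sets, 21789 named 1 gene, 1621 several and 12147 none. Of the first, 21698 matched the RefSeq gene table (GRCm38.p6) by gene ID, with 0 symbols updated. Each gene was read by its probe set with the highest mean. The deposited intensities were converted to log2(intensity + 16). Genes above intensity 97.8 in 3 or more arrays (16883 of 19938) entered 1 limma fit (limma 3.58.1, R 4.3.3) with a mean per group. Contrasts were tested with eBayes with calls at 0.05 after Benjamini-Hochberg adjustment of p over all kept genes. The test was checked on simulated data. With 3 arrays against 3, an exact permutation test of one gene cannot go below p = 0.1, so only the fit across genes was used. A standard error follows each ± sign. The number of arrays limits the precision.

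The text names all 7 genes in every contrast and the 5 genes most correlated with each member. Up to 4 called genes of a list were named in a contrast, and these were not always the genes with the largest changes. The hormone genes and the markers with values per array were named after their values were seen. The members and lists were chosen with earlier results of these data known. Of the listed genes, those that no probe set names alone were not analysed here. Alternatives were other offsets and filters, quantile normalization, median centring, array weights, a 1.5-fold minimum, a replicate block, fits of only the groups compared, and leaving out arrays. Promoters came from RefSeq.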

Additional observations from a re-analysis of the deposited data

Results flagged for a closer look

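For 5 of the 7 genes the difference from Sox9-GFP+ cells was not the same at e15.5, against Ngn3-GFP+ cells, and at p23, against GFP- cells, by the interaction term of the limma fit. All 5 terms were positive, where 27.1% of all genes were called positive. The Irx2 call was lost after median centring (0.34, adjusted p = 0.08) and with a 1.5-fold minimum. The interaction, as a difference of log2 differences, was 1.86 for Pax6, 3.06 for Mlxipl, 2.97 for Glis3, 1.61 for Hhex and 0.62 for Irx2. In the GFP- arrays from p23 the leukocyte marker sum was 65846 to 96742, and its part in these values was not tested.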

How the results depend on the processing

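Of 876 values of the 7 genes over all alternatives, 842 stayed called or stayed not called, 26 lost a call and 8 gained one. Among values called in the main or the alternative fit, 0 reversed direction. Values not called in either fit could change sign. Mafa at e15.5 against e10.5, for example, went from -0.17 to 0.07 with quantile normalization. With a 1.5-fold minimum, the number of the 7 genes called went from 4 to 1 between e10.5 and e15.5, from 5 to 3 between e15.5 and p23, and from 4 to 0 between the e15.5 sorts. Without the 3 arrays with embryonic globin, an alternative chosen after seeing the data, it went from 4 to 2 between e10.5 and e15.5, with 1 array left at e10.5 and the differences of the lost Mlxipl (0.78) and Hhex (1.11) close to those with all arrays (0.85 and 0.96). Leaving out 1 array at a time gave 3 to 4, 5 to 5 and 6 to 6 members called in the age comparisons, 3 to 4 and 4 to 4 in the sort comparisons at e15.5 and p23, and 5 to 6 in the interaction. Isl1 passed between e10.5 and e15.5 with only those groups fitted (adjusted p = 0.00929) and with a larger offset (0.0137), and between the p23 sorts with array weights (0.67, adjusted p = 0.047). Mafa passed between e15.5 and p23 with array weights (0.26, adjusted p = 0.000724). After median centring, the all-gene median went from -0.05 to 0.11 for e15.5 against e10.5 (A), from 0.05 to -0.11 for p23 minus e15.5 (B), from 0.04 to -0.14 for the e15.5 sorts (C) and from 0.18 to -0.09 for the interaction (D). The share of calls that were higher moved from 43.3% to 73.7% in A, from 53.4% to 39.4% in B, from 55.9% to 28.2% in C and from 59.7% to 35.8% in D, and with quantile normalization to 62.7% in A and 42.5% in C. The count of all genes called went from 4754 to 2725 and from 7034 to 4072 with quantile normalization in A and C. Over all alternatives, the 1.5-fold minimum lowest, it ran from 425 to 7149 in A, from 1615 to 13718 in B (9714 in the main setting), from 178 to 7980 in C, from 2199 to 7776 between e10.5 and p23 (6916), from 2050 to 8775 between the p23 sorts (6077) and from 1797 to 9757 in D (7651). Deviations of same-numbered arrays from their group means correlated from -0.487 to 0.198 over all pairs of groups. Between the p23 sorts these correlations were 0.108, -0.121 and -0.025. Deviations from a mean of 3 arrays depend on each other, so they cannot tell whether replicate numbers pair the samples. The replicate block changed none of the 42 calls of the 7 genes in these 6 contrasts. With a filter at the median Mafa was not tested. Background correction and slide could not be varied from the deposited values. The causes of these changes were not tested.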

Other observations

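Several close relatives of the 7 genes were measured as well. Glis2, a zinc finger relative of Glis3, lay between 9.65 and 10.54 in all Sox9-GFP+ and Ngn3-GFP+ arrays and at 7.65, 7.84 and 7.66 in GFP- cells, a difference of 2.51 ± 0.16 between the p23 sorts (adjusted p = 1.9e-08). Like Glis3 it was lower in GFP- cells, but it was not called between e10.5 and e15.5 (0.36 ± 0.16). Glis1 lay between 7.18 and 7.93 in all arrays. Among the Iroquois genes, Irx1 lay between 6.65 and 7.54 and Irx3 between 7.21 and 7.89, while Irx5 stayed at or under 6.89. Isl2, the relative of Isl1, lay between 6.19 and 6.93. Mlx, the binding partner of ChREBP, fell by 0.54 ± 0.19 from e15.5 to p23 among Sox9-GFP+ sorts (adjusted p = 0.0238), and Mlxip, the relative of Mlxipl, gave 0.14 ± 0.14.

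Slc2a2, the glucose transporter gene GLUT2 and a listed target of the islet factors, stayed well above its GFP- level in the p23 Sox9-GFP+ sort. Most of that list did not follow it. Of 15 targets of Pax6, Isl1 and Mafa, 2 were higher in Sox9-GFP+ than in GFP- cells at p23, 3 lower and 10 not called (median -0.12). Over all genes, 21.5% were called higher and 14.5% lower. Slc2a2 was named after its values were seen. Its level was 9.94, 10.13 and 10.08 in the Sox9-GFP+ sort against 7.10, 7.27 and 6.81 in the GFP- sort, a difference of 2.99 ± 0.23 (adjusted p = 1.32e-07). Its highest values were 11.54, 10.80 and 10.32 in Ngn3-GFP+ cells.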
